A study of Canis lupus familiaris with 22 samples.

Results

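The 150 genes described here had a higher RNA level in the macular retina than in the peripheral retina of each of 4 dogs, without the same regional difference, in either direction, in the tissue behind the retina of all 4 dogs. That tissue was the retinal pigment epithelium with the choroid (RPE/choroid). The genes were chosen by values of these same libraries. For each gene and dog, counts were scaled to CPM (counts per 1000000 counts of the library), and d was the log2 ratio of macular to peripheral CPM after 0.5 CPM had been added to both. A gene was taken when d in the retina was at least 0.2 in all 4 dogs, d in the RPE/choroid was neither at least 0.2 in all 4 nor at most -0.2 in all 4, and its mean over the 8 retina libraries was at least 2 CPM. Of 30951 gene identifiers, 1572 met the first condition, 1157 the first 2 and 959 all of them, and the 150 with the largest smallest d were kept. The smallest d of the last 3 genes inside this limit was 0.7163 to 0.7186, and that of the first 3 genes outside it was 0.7148 to 0.7154, so the limit fell at no gap in the values.

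The macula of the retina is the region of sharpest vision, and in the dog, which has no foveal pit like that of primates, it is a central area in which photoreceptors and ganglion cells are packed more densely than elsewhere. The retina is layered neural tissue made of photoreceptors, interneurons, ganglion cells and glia. The RPE is the pigmented epithelium that recycles visual pigment and takes up shed photoreceptor tips, and the choroid is the vascular layer that supplies it. Because each library held the RNA of a mixed tissue, more cells of a type in the macula and more RNA per cell cannot be told apart in any of the values below.

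The first 4 dogs were mixed breeds and gave 16 libraries, 1 per dog from each tissue in each region. Breeds and ages are estimates. Dogs 18-2 (pitbull mix, 2 to 3 years) and 18-6 (mastiff mix, 3 to 5 years) were males sampled in the left eye. Dogs 18-7 (pitbull mix, 3 to 5 years) and 18-9 (boxer mix, 2 to 3 years) were females sampled in the right eye, so that sex and eye cannot be told apart. A further 3 dogs, a female (dog 1, labrador/pitbull mix, 3 to 5 years) and 2 males (dogs 2 and 3, pitbull mixes, 2 to 3 and 3 to 4 years), gave macular RPE/choroid from both eyes, the right sampled through an attached retina (retina on) and the left once the retina was off, so that eye side and sampling cannot be told apart. No treatment or disease was named in the labels. Library totals ran from 2690847 (peripheral RPE/choroid of dog 18-6) to 7845325 counts (retina-off RPE/choroid of dog 3), and the gene with the most counts held 0.0933% to 0.153% of its library, a low share for tissue in which photoreceptor transcripts are usually very abundant. Whether duplicate reads were removed before counting is not known here, and if they were, the levels and folds of abundant genes would be compressed. No identifier could be paired with a gene symbol (0 of 30951 matched the reference table used here), so the genes are described by their levels and by a few identifiers, without functions, and the tissue labels could not be checked against named cell type markers.

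In the macular retina the 150 genes together made up 5379 CPM in dog 18-2, 6139 in dog 18-6, 5723 in dog 18-7 and 5863 in dog 18-9. In the peripheral retina of the same dogs they made up 2154, 2753, 2641 and 2706 CPM. The groups did not overlap, and the summed level was 2.17 to 2.50 times higher in the macula of each dog. These values restate the choice of the genes and are given as a description. Gene by gene, d in the retina had a median of 1.30 in dog 18-2, 1.18 in dog 18-6, 1.18 in dog 18-7 and 1.10 in dog 18-9, that is a little over 2-fold in the typical gene, and its mean over the dogs ran from 0.79 to 2.43. In all 4 dogs at once, 63 genes reached a d of 1, a count for which no share over all genes was computed. In single dogs 94 to 125 of the 150 genes did so. Of all 14149 genes with a mean of at least 2 CPM in retina, 325 to 613 did. Every macular library lay above every peripheral library for 143 of the 150 genes. The same held for 9.99% of all 14149 genes with a mean of at least 2 CPM in retina, and since the choice of the genes rests on this contrast nothing follows from the difference.

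**Figure D1:**
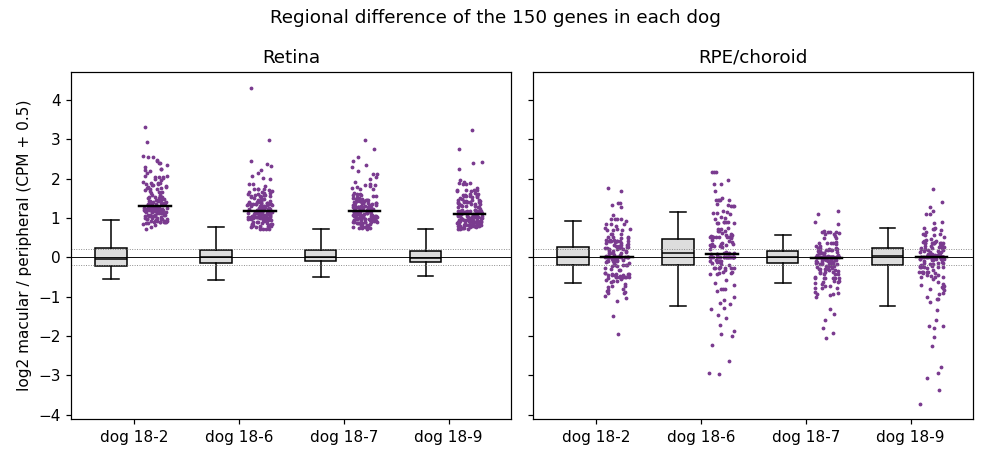
Each point is 1 of the 150 genes, plotted by its log2 ratio of macular to peripheral CPM (with 0.5 CPM added) in each dog, in retina (left) and RPE/choroid (right). Black bars are medians over the 150 genes, grey boxes show all 14149 genes with a mean retina level of at least 2 CPM (median, quartiles, 5th to 95th percentile) and dotted lines mark 0.2 and -0.2. The retina medians lie between 1.10 and 1.30 and the RPE/choroid medians between -0.01 and 0.09.

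The genes were mostly of low to middle abundance. Their mean retina level had a median of 12.4 CPM and ran from 2.105 to 146 CPM, against a median of 48.3 CPM over all genes of at least 2 CPM. Between 2 and 5 CPM there were 27 genes, between 5 and 20 CPM 62, between 20 and 100 CPM 53, and above 100 CPM 8. The median over genes of the mean d was 1.39 in the lowest of these classes and 1.07 in the highest. At this depth 28 genes had fewer than 10 counts in at least 1 peripheral retina library, 1 of them with no count, and 1 had fewer than 10 in a macular library, so single-dog ratios of these genes carry a large counting error.

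The size of the regional difference varied between dogs. Dog 18-2 had the largest d for 73 of the 150 genes (48.7%), and its peripheral retina had the lowest summed level of the group. This dog also had the largest d for 48.8% of the 959 genes that met the conditions, and for 30.3% of all genes of at least 2 CPM in retina. The gap between the largest and smallest d of a gene had a median of 0.57, was under 0.5 for 63 genes and over 1 for 25. Macular levels themselves were similar in the 4 dogs for most of the genes, as they were for most genes of the same minimum level. The highest and lowest dog differed by a median of 0.44 on the log2 scale, against 0.36 over all genes of the same minimum level, and by more than 2-fold for 11 genes (7.33%, against 9.03%).

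The gene with the largest smallest d was ENSCAFG00000012173. It had 11.5, 15.7, 13.7 and 9.81 CPM in the macular retina of dogs 18-2, 18-6, 18-7 and 18-9, and 0.713, 3.00, 2.28 and 2.32 CPM in the peripheral retina. The groups did not overlap, and the lowest peripheral value, in dog 18-2, rested on 4 counts. The same gene was higher in the RPE/choroid than in the retina, at 29.1, 65.0, 37.8 and 56.2 CPM in the macular libraries and 40.1, 25.3, 24.6 and 30.8 CPM in the peripheral ones. Those groups overlapped, and the tissue difference was -2.48 ± 0.18 (log2, SE, edgeR adjusted p = 3.48e-05). Within dogs, its d in RPE/choroid was -0.46, 1.35, 0.61 and 0.86, so the macular library was the higher in dogs 18-6, 18-7 and 18-9. The fitted regional difference in RPE/choroid was 0.53 ± 0.26 (log2, SE, edgeR adjusted p = 0.191). The second gene, ENSCAFG00000011825, had 14.0, 25.5, 20.5 and 35.5 CPM in the macular retina and 1.96, 4.72, 3.10 and 10.1 CPM in the peripheral retina, again without overlap and with dog 18-9 the highest in both. In the RPE/choroid it was near the limit of detection, with 0.482, 0.219, 0.722 and 1.28 CPM in macular libraries and 0, 0, 3.73 and 1.22 CPM in peripheral ones, dog 18-7 standing highest.

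Whether the regional difference extended to a dog that had taken no part in the choice was examined by applying the same conditions to 3 dogs and reading the fourth. The 150 genes chosen without dog 18-2 had a median d of 1.22 in that dog, and 145 of them were above 0. Chosen without dog 18-6, the median in that dog was 1.13, with 146 above 0. For dog 18-7 the values were 1.14 and 147, and for dog 18-9 they were 1.05 and 147. Among all genes of the same minimum level the medians were -0.04, 0.00, 0.01 and -0.01, and 45.5%, 50.6%, 52.7% and 47.1% of genes were above 0. A d of at least 1 in the dog left out was reached by 102, 100, 94 and 82 of the 150 genes, and by 4.29%, 2.91%, 2.23% and 2.55% of all genes of that level. Of the genes chosen on 3 dogs, 121 to 123 were among the 150 chosen on all 4. In the RPE/choroid of the dog left out, the medians of the same genes were 0.00, 0.09, -0.07 and 0.00.

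**Figure D2:**
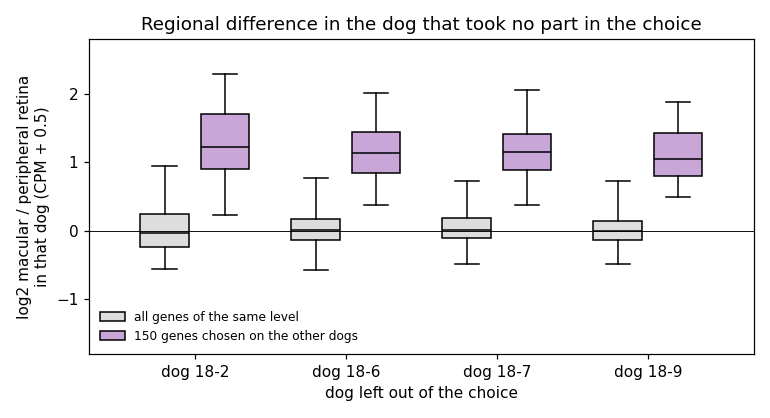
For each dog, the log2 ratio of macular to peripheral retina CPM in that dog is shown for the 150 genes chosen on the other 3 dogs (purple) and for all genes of the same minimum level (grey). Boxes are the median and quartiles and whiskers the 5th to 95th percentile. The purple medians run from 1.05 to 1.22, and the grey ones lie within 0.04 of 0.

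The authors' design compared the same regions in the RPE/choroid, and there the 150 genes had no shared direction. The choice fixes part of this, since it left out genes with d there of at least 0.2, or at most -0.2, in all 4 dogs. The median d was 0.00 in dog 18-2, 0.09 in dog 18-6, -0.01 in dog 18-7 and 0.00 in dog 18-9. Among all 14149 genes with a mean of at least 2 CPM in retina these medians were 0.00, 0.12, 0.00 and 0.03. A d of at least 0.2 was found for 57, 70, 29 and 45 of the 150 genes in dogs 18-2, 18-6, 18-7 and 18-9. A d of at most -0.2 was found for 48, 39, 51 and 51. Among all 14149 genes the shares at or above 0.2 were 29.72%, 43.52%, 19.85% and 27.68%. Those at or below -0.2 were 25.92%, 25.01%, 21.07% and 24.41%. The excess of positive values in dog 18-6, whose peripheral RPE/choroid library was the shallowest, was thus also present over all genes. The name given to the genes holds only in the sense of the rule. On the mean over the 4 dogs, 45 genes had a d of at least 0.2 in RPE/choroid and 43 of at most -0.2. In 3 of the 4 dogs, 29 and 23 genes met one of these limits. The shares of all genes meeting these limits on the mean or in 3 dogs were not computed, so these counts are a description. For 58 of the 150 genes the mean RPE/choroid level was below 1 CPM, so that a regional difference there was hardly measurable. By edgeR's quasi-likelihood test with Benjamini-Hochberg adjustment over all genes, with the dog as a block, 85 of the genes could be tested in RPE/choroid. Of these, 1 was called higher and 2 lower in the macula, where 8.19% and 5.26% of the 14352 genes tested were called. The conditions removed genes with a regional difference in all dogs, so this count is a description.

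The 3 genes called were ENSCAFG00000013182, higher in macular RPE/choroid (43.4 ± 8.60 against 32.4 ± 3.37 CPM, SD, n = 4 dogs, edgeR adjusted p = 0.0442), and ENSCAFG00000046318 and ENSCAFG00000024327, lower there. ENSCAFG00000024327 had 59.2, 71.3, 74.2 and 61.6 CPM in the macular RPE/choroid of dogs 18-2, 18-6, 18-7 and 18-9 and 72.7, 79.9, 84.2 and 71.4 CPM in the peripheral, lower in the macula of each dog by a small margin (edgeR adjusted p = 0.0395). ENSCAFG00000046318 averaged 2.46 ± 1.39 CPM in the RPE/choroid of the macula and 7.78 ± 6.86 CPM outside it (SD, n = 4 dogs, edgeR adjusted p = 0.0262), while in retina it averaged 26.4 ± 3.28 and 8.98 ± 2.75 CPM. All 3 calls were lost without dog 18-2, 18-6 or 18-9 and without the dog block, and 2 of them (ENSCAFG00000013182 and ENSCAFG00000024327) in DESeq2. The call of ENSCAFG00000024327 was also lost with no low-count filter (edgeR adjusted p = 0.0516). The number of the 150 genes called in RPE/choroid was 0 without dog 18-2, 1 without dog 18-6, 10 without dog 18-7 and 0 without dog 18-9.

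In the fitted retina contrast, 149 of the 150 genes passed the low-count filter and all 149 were called higher in the macula, where 12.3% of 14392 genes were called higher. The fitted log2 fold change had a median of 1.29 and ran from 0.79 to 2.93, and 132 genes differed by at least 2-fold. The difference of the regional differences, retina minus RPE/choroid, was called positive for 73 of 149 genes, where 9.64% of the 15577 genes tested were called positive, and negative for none of the 149, where 9.57% were. These figures rest on the contrasts that chose the genes and are read no further. Of the 73, 22 were among 83 genes that were at least 4-fold higher in retina than in RPE/choroid and 18 among 20 that were at least 4-fold lower, classes that are described next. Of the 83 genes 82 were tested. In RPE/choroid 58 of the 83 averaged below 1 CPM and 9 had no count, so their difference was hardly measurable. The counts of the 2 classes are therefore not alike. Without the dog block 37 genes were called, and without dog 18-9 41.

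The comparison of the tissues, retina against RPE/choroid, was no condition of the choice but is not independent of it. It rests on the same libraries, the choice asked for a minimum level in retina and a macular excess, and a gene near 0 in RPE/choroid could show no regional difference there. The shares below are therefore a description. The contrast was fitted on the counts of both regions summed within each dog and tissue, with the dog as a block (n = 4 dogs). Of the 150, all tested, 98 (65.3%) were higher in retina and 32 (21.3%) were higher in RPE/choroid by edgeR's test, and 20 were not called. Over all 15865 genes tested, 32.5% were called higher and 34.3% lower in retina, and over the 14134 with a mean of at least 2 CPM in retina these shares were 35.4% and 30.7%. At least 4-fold higher in retina were 83 of the 150 genes (55.3%), where 10.8% of all genes tested and 11.3% of those of the same minimum level were. A difference of at least 4-fold in favour of RPE/choroid was called for 20 (13.3%), against 13.1% of all genes tested and 8.21% of those of the same minimum level. A fitted difference under 2-fold was found for 29 genes (19.3%), against 60.4% and 64.8%. The remaining 18 lay between these limits. The median log2 fold change of the 150 genes was 2.60, against -0.01 over all genes tested and 0.05 over those of the same minimum level. Seen from the other side, the 150 genes held 5.21% of the 1594 genes of that level that were at least 4-fold higher in retina, 1.72% of the 1161 that were at least 4-fold lower and 0.317% of the 9157 with less than a 2-fold difference.

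**Figure D3:**
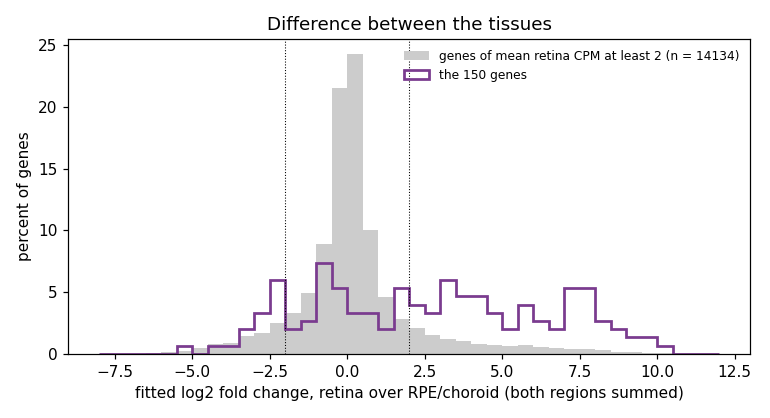
Distribution of the fitted log2 fold change of retina over RPE/choroid for the 150 genes (purple line) and for the 14134 tested genes with a mean retina level of at least 2 CPM (grey), in percent of each set per bin of 0.5. Dotted lines mark a 4-fold difference in either direction, beyond which 83 and 20 of the 150 genes lie, while the grey distribution centres near 0.

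The tissue difference depended on the region in the way that the choice of the genes fixes, and both regions are therefore given. In the macular libraries alone, where all 150 genes were tested, 100 were called higher in retina and 28 lower. The median log2 fold change there was 3.39. In the peripheral libraries alone, 137 of the genes were tested, 75 and 45 were called, and the median was 1.44. These medians are thus over different numbers of genes, and no share over all genes was computed for either fit. The count of genes at least 4-fold higher in retina was 89 in macular and 57 in peripheral libraries. That of genes at least 4-fold lower was 10 and 29.

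The 83 genes at least 4-fold higher in retina made up the largest class. They summed to 3022, 3180, 3220 and 3039 CPM in the macular retina of dogs 18-2, 18-6, 18-7 and 18-9 and to 1187, 1457, 1494 and 1452 CPM in the peripheral retina. The RPE/choroid libraries of these dogs held 95.9 to 168 CPM, and the macular (127 ± 21.6 CPM) and peripheral (139 ± 31.2 CPM) values overlapped (SD, n = 4 dogs each). Of these genes 58 averaged below 1 CPM in the RPE/choroid and 9 had no count in any of its 8 libraries. A list of 200 other genes with the largest fold in favour of retina, chosen from the same fit, summed to 1.07 to 1.26 times as much in the macular as in the peripheral retina of the same dogs, against 2.09 to 2.55 times for the 83 genes. The 83 were chosen on this difference and the list leaves out the 150 genes, so the gap between the ratios is a description that the choice fixes.

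By fitted value, the members with the largest fold in favour of retina were ENSCAFG00000013351 and ENSCAFG00000015602, an order that the counts near 0 in RPE/choroid leave uncertain. ENSCAFG00000013351 had 19.3, 15.7, 22.6 and 17.5 CPM in the macular retina and 4.28, 7.50, 8.31 and 9.27 CPM in the peripheral retina, without overlap, and no count in any of the 14 RPE/choroid libraries of the series. Against a floor of 3 counts over the 8 RPE/choroid libraries of the first 4 dogs, it was at least 206-fold higher in retina (edgeR adjusted p = 0.000405), and at least 134-fold without dog 18-7, where the floor is set over the libraries of 3 dogs. ENSCAFG00000015602 had 36.7, 47.2, 47.2 and 42.3 CPM in the macular and 12.8, 21.0, 22.6 and 18.0 CPM in the peripheral retina. A single count was found in the RPE/choroid of these dogs, in the macula of dog 18-9, and the pooled ratio was 1438 (exact 95% counting interval 258 to 56834, edgeR adjusted p = 4.88e-06). Leaving out dog 18-7 gave a ratio of 955. With dog 18-9 left out, no count remained in RPE/choroid and the gene was at least 341-fold higher in retina. ENSCAFG00000011825, the second gene of the list, had a pooled ratio of 12.9 in favour of retina, a fitted log2 fold change of 3.89 ± 0.54 (SE) and an edgeR adjusted p of 0.000722. Its ratio was 23.8 without dog 18-7, and in the peripheral libraries alone its difference was not called (log2 fold change 1.92, edgeR adjusted p = 0.0721).

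**Figure D4:**
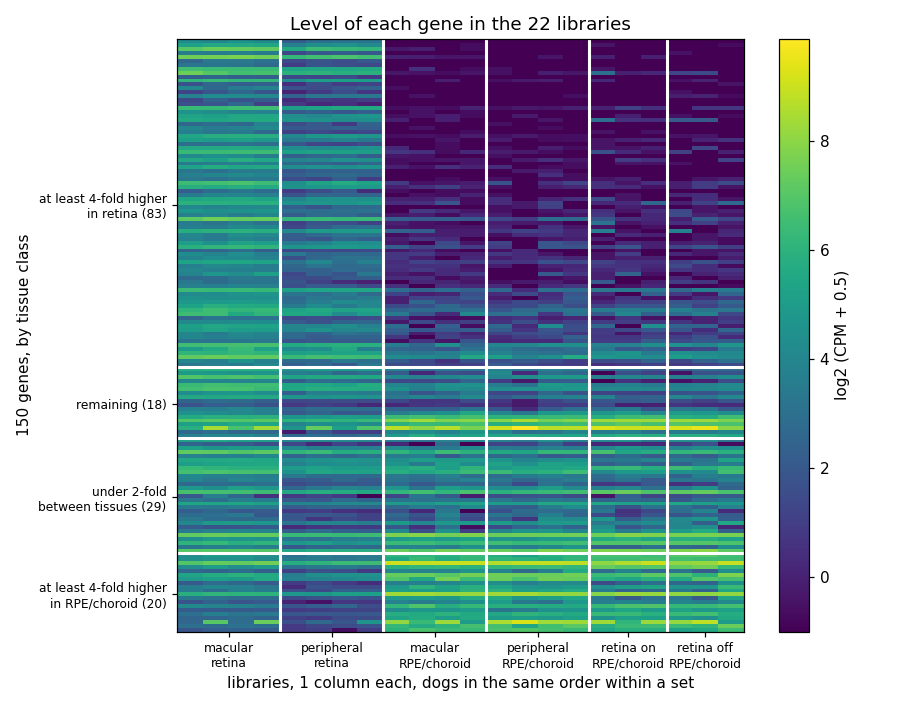
Level of the 150 genes, 1 line each, in the 22 libraries as log2 of CPM plus 0.5, with white lines between the 6 sample groups and between the classes of fold between the tissues. Genes are ordered within a class by fitted fold. Most of the 83 genes of the top block are dark in the 14 RPE/choroid libraries, and the 20 genes of the bottom block are brighter there than in retina.

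The 20 genes at the opposite end favoured RPE/choroid by at least 4-fold and still had a higher level in macular than in peripheral retina. They summed to 405, 624, 479 and 664 CPM in the macular retina of dogs 18-2, 18-6, 18-7 and 18-9, and to 155, 194, 223 and 244 CPM in the peripheral retina, without overlap. The median gene had 10.5 to 13.2 CPM in the macular and 2.67 to 3.42 CPM in the peripheral libraries. Their RPE/choroid sums were 1904 to 2094 CPM in macular and 2120 to 2307 CPM in peripheral libraries, and the macular sum was 0.83 to 0.99 times the peripheral one in each dog. A list of 200 other genes with the largest fold in favour of RPE/choroid summed to 73.2 to 116 CPM in the macular and 77.7 to 230 CPM in the peripheral retina. The macular sum of this list was 0.94, 1.36, 0.96 and 0.36 times the peripheral one in dogs 18-2, 18-6, 18-7 and 18-9, while that of the 20 genes, which were chosen on this ratio, was 2.61, 3.21, 2.15 and 2.72 times. The difference between the lists follows from the choice, and the part of RPE/choroid RNA in the level of the 20 genes was not tested.

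ENSCAFG00000010206 and ENSCAFG00000000681 had the largest folds in favour of RPE/choroid. ENSCAFG00000010206 had 3.09, 4.33, 4.70 and 4.02 CPM in the macular retina of the 4 dogs, and 1.25, 1.50, 0.163 and 1.49 CPM in the peripheral retina, without overlap. Its RPE/choroid values were 64.7, 108, 82.6 and 82.6 CPM (macular) and 108, 120, 101 and 79.2 CPM (peripheral), overlapping between the regions and far above those of retina. Its log2 fold change between the tissues was -5.22 ± 0.12 (SE, edgeR adjusted p = 1.56e-06), and the peripheral retina values rest on 1 to 9 counts. ENSCAFG00000000681 had 7.66, 6.59, 7.89 and 7.40 CPM in macular and 1.25, 1.93, 2.44 and 2.98 CPM in peripheral retina, without overlap. Its RPE/choroid mean was 73.5 ± 21.6 CPM for macular and 93.8 ± 38.6 CPM for peripheral libraries (SD, n = 4 dogs each), and its log2 fold change between the tissues was -4.14 ± 0.18 (SE, edgeR adjusted p = 4.78e-06).

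**Figure D5:**
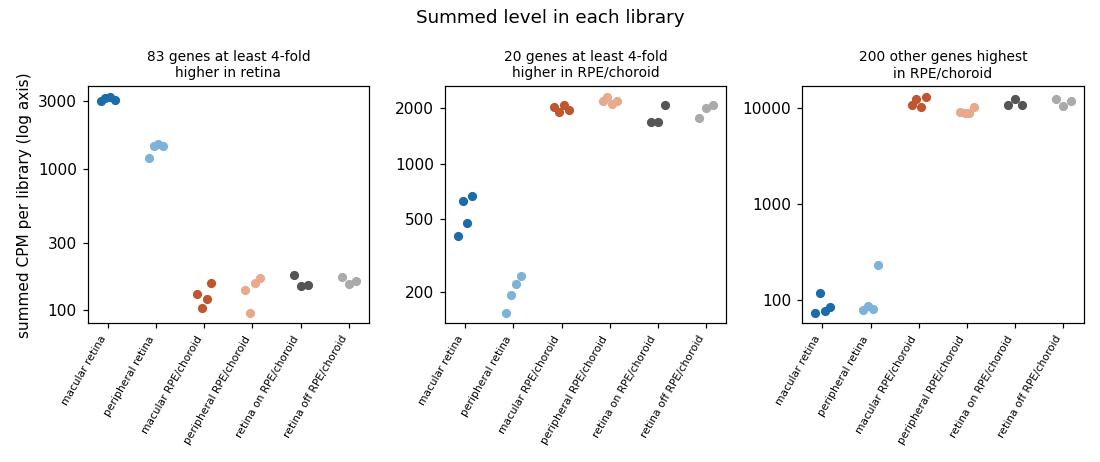
Summed CPM per library (log axis, 1 point per library) in the 6 sample groups for the 83 genes at least 4-fold higher in retina, the 20 genes at least 4-fold higher in RPE/choroid and 200 other genes with the largest fold in favour of RPE/choroid. The first 2 panels show macular retina above peripheral retina in every dog, for which these genes were chosen. The third, of genes not so chosen, shows 73.2 to 116 CPM in macular and 77.7 to 230 CPM in peripheral retina.

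The 29 genes with less than a 2-fold difference between the tissues stood at 1155 ± 35.6 CPM in sum in macular retina and 521 ± 40.8 CPM in peripheral retina (SD, n = 4 dogs each). Their sum in RPE/choroid was 1016 ± 67.7 CPM in macular and 1006 ± 128 CPM in peripheral libraries, with overlapping values. Within each dog the macular retina therefore held 1.03 to 1.30 times the sum of the macular RPE/choroid, and the peripheral retina 0.47 to 0.67 times that of the peripheral RPE/choroid. Gene by gene, 26 of the 29 were within 2-fold between the tissues of the macula. The 18 remaining genes summed to 963 ± 154 CPM in the macular retina and 441 ± 86.6 CPM in the peripheral, and to 930 ± 35.1 and 1168 ± 269 CPM in the RPE/choroid of the same regions. The fitted regional log2 difference in retina had a median of 1.29 in the 83 genes, 1.47 in the 20, 1.18 in the 29 and 1.22 in the 18, so all 4 classes shared a difference of similar size, as the choice of the genes requires of each at the lower end.

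The second set of dogs asked whether leaving the retina on during sampling changed the macular RPE/choroid, in libraries that took no part in the choice. The 150 genes summed to 4265, 4253 and 4431 CPM with the retina on and to 4380, 4814 and 4167 CPM with the retina off in dogs 1, 2 and 3, and the groups overlapped. Of the 150 genes, 77 passed the low-count filter and none was called by edgeR, where 0% of the 14076 genes tested were called. At an unadjusted p under 0.05 there were 2 of the 77 genes (2.60%) and 84 of all 14076 (0.597%), and DESeq2 called none of 134. The median log2 fold change of the 77 genes, on over off, was -0.09, against 0.00 over all genes. Only 3 dogs were compared, and the result does not show that the levels were equal.

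Retina of these 3 dogs was not analysed here, so only the RPE/choroid levels of the classes can be set beside those of the first 4. The 83 genes at least 4-fold higher in retina summed to 176, 147 and 151 CPM with the retina on and to 171, 153 and 159 CPM with the retina off. The 20 genes at least 4-fold higher in RPE/choroid summed to between 1689 and 2082 CPM in the 6 libraries. Both ranges overlapped those of macular RPE/choroid in the first 4 dogs. No count was found in the 6 libraries for 16 of the 150 genes, all among the 83, and 55 averaged below 1 CPM. The 200-gene retina list summed to 514 CPM in the retina-on library of dog 1 and to 21.8 to 105 CPM in the other 5. In that library the 83 genes stood at 176 CPM, the highest of the 6 values, against 171 CPM in the fellow eye, and the part that retina RNA had in these values was not tested.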

How the data were processed

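RNA-seq libraries of dog retina and RPE/choroid were made from total RNA (spin columns, DNase) with a strand-keeping Illumina kit, per the labels' protocols. The authors deposited raw read counts, whole numbers for 30951 Ensembl gene identifiers per library. Tools listed in the submitters' processing notes, without roles, were featureCounts 2.0.0, HISAT2 2.1.0, SAMtools, Trimmomatic 0.39 and FastQC 0.11.8. Not given in the sources used here were the build, annotation, strand setting and treatment of duplicates. Reads of overlapping or antisense genes may therefore be shared between identifiers.

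Groups and dogs came from the sample titles. Counts were tested with edgeR 4.0.16 in R 4.3.3 (TMM, filterByExpr, glmQLFTest, Benjamini-Hochberg over all genes tested, threshold 0.05), with the dog as a block, since the libraries of a dog come from 1 animal, and with each dog's tissue as the block for the difference of regional differences. Deviations of same-dog libraries from their group means correlated at 0.44 to 0.56 between the retina regions and 0.42 to 0.59 between the RPE/choroid regions, at -0.08 to 0.10 between tissues of the macula, and at 0.67, -0.08 and 0.48 between the eyes of dogs 1, 2 and 3. DESeq2 1.42.0, RLE scaling, no low-count filter, no block, each dog left out, single libraries and single regions were tried as alternatives. All those for the regional contrast in RPE/choroid and for the difference of regional differences, and no filter for the retina contrast, were chosen after seeing the data. The main edgeR fits of the tissues, of retina on against off and of the regions within each tissue were tested on simulated data. These had the same dispersion for every gene, and changes only in genes with enough counts. Changes of 2-fold were recovered for 94% to 98% of 100 genes, with 7 to 11 false calls per fit. The difference of regional differences, DESeq2 and the other alternatives were not tested in this way. Standard errors came from the fold change and F statistic.

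The genes, the lists and the tests were chosen with earlier results of these data known. The tissue classes and both 200-gene lists (mean log2 CPM of at least 1, called, none of the 150 genes) came from these libraries. Identifiers named were the 2 first by the rule and at most 2 in each direction of each other comparison. The planned symbol lists (cell type markers, pathways, disease genes) could not be used, because no identifier matched a symbol in the table of assembly UU_Cfam_GSD_1.0, and no sequence is printed for the same reason. CPM used library totals. Counting intervals and floors cover counting error only.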

Additional observations from a re-analysis of the deposited data

Results flagged for a closer look

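Among 64 sets of 4 values examined (summed levels and named genes, by group), 5 held a value far from the other 3. Chance gives about 1 in 20 for independent, normally distributed values. These sets share genes and some hold very few counts, so that rate is only nominal here. The 83 genes at least 4-fold higher in retina summed to 1187 CPM in the peripheral retina of dog 18-2, below 1452 to 1494 CPM in the other 3 dogs. The 18 genes between the tissue classes summed to 1569 CPM in the peripheral RPE/choroid of dog 18-6, the shallowest library. The 200-gene RPE/choroid list summed to 230 CPM in the peripheral retina of dog 18-9, against 77.7 to 85.3 CPM in the others. ENSCAFG00000015602 had 0.142 CPM (1 count) in the macular RPE/choroid of dog 18-9 and none in the other 3. ENSCAFG00000013182 had 6.68 CPM in the macular retina of dog 18-7, against 5.15 to 5.35 CPM in the others. Over all 150 genes such a value occurred for 11 in each region of the retina, and for 20 (macular) and 15 (peripheral) in RPE/choroid. No share over all genes was computed for these counts. A gene with 1 count in 1 library and none in the other 3 is always flagged, so the RPE/choroid counts are a description.

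For 7 of the 9 identifiers named, the regional log2 difference was called more positive in retina than in RPE/choroid by edgeR's test of that difference. The differences, retina minus RPE/choroid, were 2.04 for ENSCAFG00000012173, 3.19 for ENSCAFG00000011825, 2.19 for ENSCAFG00000010206, 2.104 for ENSCAFG00000000681, 1.18 for ENSCAFG00000013182, 3.16 for ENSCAFG00000046318 and 1.69 for ENSCAFG00000024327. For ENSCAFG00000011825 the RPE/choroid part rests on few counts, the most being 26 in the peripheral library of dog 18-7. Its d in RPE/choroid was 0.97, 0.52, -1.79 and 0.05 in dogs 18-2, 18-6, 18-7 and 18-9. It did not pass the low-count filter of the regional contrast in RPE/choroid. The genes were chosen on this pattern, so the values of all 7 are a description.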

How the results depend on the processing

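The 150 genes shared 141 with the list chosen with 1 CPM added, 139 with TMM library sizes, 123 with a minimum of 5 CPM and 121 to 123 with 1 dog left out. Calls higher in retina than in RPE/choroid numbered 75 to 100 and calls lower 28 to 45 over all alternatives, within 1.5 times of the reported counts. Genes at least 4-fold lower in retina numbered 10 in the macular libraries. The fit of the peripheral libraries tested 137 of the 150 genes. The median log2 fold change between the tissues was 2.40 with 16 libraries fitted singly, 3.39 in the macula, 1.44 in the periphery and 2.46 to 2.79 with 1 dog left out. The regional contrast in retina called 141 to 150 genes, with 141 under no replicate block. In RPE/choroid the regional calls numbered 0 without the block and 0 to 10 with 1 dog left out, and the median ran from -0.17 to -0.091 with 1 dog left out. The difference of regional differences was called for 37 genes without the block and for 41 to 62 with 1 dog left out. Retina on against off gave 0 calls under every alternative run, with a median of -0.18 to -0.039 with 1 dog left out. The causes were not tested. ENSCAFG00000046318 was not called between the tissues in the peripheral libraries (log2 fold change 0.26). No named gene reversed its direction. Depth limits the genes near 0 in RPE/choroid.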
